A study of Rattus norvegicus with 6 samples.

Results

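The genes described here are those of lysophosphatidic acid (LPA) and sphingosine 1-phosphate (S1P) signaling that carry the names Enpp2, Lpar1, Lpar2, Lpar3, Lpar6, S1pr1, S1pr2, S1pr3, Sphk1 and Sphk2. They were chosen by gene name, and all 10 were found among the 21655 gene names of the deposited table of linear RNAs, with 29 of its 70376 transcripts. The RNA came from lung specimens of Sprague–Dawley rats that were 7 weeks old at the start. Control rats were given saline. PF model rats were given bleomycin, a DNA-damaging drug that injures the lung, at 7 mg/kg in 1 intratracheal instillation. The specimens were taken after 28 days. From each group 3 rats were sequenced, with 1 rRNA-depleted library per rat, and no transgene or deletion was involved. The model is a chemical injury seen at 1 time point, and bulk lung mixes every cell type of the organ, so fewer cells of a type and less RNA per cell cannot be told apart.

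LPA and S1P are small signaling lipids that act outside the cell through G protein-coupled receptors. Autotaxin, the secreted enzyme encoded by Enpp2, makes LPA from lysophosphatidylcholine, and LPA then acts on the receptors of the Lpar genes. The sphingosine kinases encoded by Sphk1 and Sphk2 phosphorylate sphingosine to S1P, which acts on the receptors of the S1pr genes. In lung, Lpar1 is known for fibroblast migration after injury, and S1pr1 for keeping the endothelial barrier tight. The question was which of these genes differed between PF model and control lungs and how their RNA was divided among transcripts.

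The receptor with the highest level in each family was S1pr1 for S1P and Lpar6 for LPA. Their promoters are shown as the sequence context of the leading receptors, as RefSeq gives them for build GRCr8, from 250 bases before to 50 bases after the start of the gene, with each CG dinucleotide in capitals. The S1pr1 promoter lies at chr2:206314021-206314320 on the minus strand and the Lpar6 promoter at chr15:54825860-54826159 on the plus strand.
S1pr1: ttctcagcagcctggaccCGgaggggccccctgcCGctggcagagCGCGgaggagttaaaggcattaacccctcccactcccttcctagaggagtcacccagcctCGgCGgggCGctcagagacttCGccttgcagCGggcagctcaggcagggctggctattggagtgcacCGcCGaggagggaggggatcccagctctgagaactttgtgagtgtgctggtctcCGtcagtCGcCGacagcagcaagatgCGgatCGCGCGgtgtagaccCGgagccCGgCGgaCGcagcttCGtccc
Lpar6: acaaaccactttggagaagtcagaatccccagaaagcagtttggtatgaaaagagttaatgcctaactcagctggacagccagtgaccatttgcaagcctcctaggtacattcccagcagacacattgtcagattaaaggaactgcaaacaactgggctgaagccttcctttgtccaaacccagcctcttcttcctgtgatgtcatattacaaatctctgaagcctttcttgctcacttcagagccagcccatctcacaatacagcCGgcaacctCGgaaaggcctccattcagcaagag
The S1pr1 sequence held 23 CG dinucleotides, as many as or more than which 19.5% of the 33469 promoters of the table held, and its GC content was 66.3%. The Lpar6 sequence held 2, and 22.3% of promoters held as few or fewer, with a GC content of 47.3%. The median promoter held 7 and had a GC content of 51.7%. Neither sequence held the GC box GGGCGG, which was present in 33.1% of all promoters, or the TATA box TATAAA, present in 14.2%, on either strand. Promoters were found for 7 of the 10 genes. Those of S1pr2 and S1pr3 held 18 and 21 CG dinucleotides.

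Expression is given as FPKM, fragments per kilobase of a transcript, scaled by the authors for the depth of the library, so levels of different genes are per length. The value of a gene was the sum over all transcripts carrying its name. The groups were set against each other with limma on log2(FPKM + 1) for the 19645 gene names that were above 0 FPKM in 3 or more samples, and all 10 genes passed this filter. A gene was called where its unadjusted p was 0.05 or less and its mean FPKM in one group was at least 2 times that in the other (1 log2 unit), following the thresholds of the study's methods. Of all genes tested, 298 were called (1.52%), 130 of them higher (0.662%) and 168 lower (0.855%) in the PF model. With FPKM rescaled to the same sum in each sample, 196 were higher and 141 lower. The sums lay between 510208 and 597647 FPKM before rescaling. They include small RNA genes with Rfam names, whose percentage lay between 34.1% and 46.4% per library, so rescaled values also depend on these. After Benjamini-Hochberg adjustment, 2 genes (0.0102%) had an adjusted p below 0.05. Reads assigned to transcripts, as estimated from coverage, numbered between 35778631 and 41112682 per library, fewer than the clean reads the paper lists. Pairs of samples from the same group (mean r of 0.968 across genes) were no more alike than pairs from different groups (0.968). Genes are not independent replicates in this r.

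One library stood apart in markers of muscle. In PF model sample 3 the 8 smooth muscle and pericyte markers summed to 220.8 FPKM, against at most 192.9 FPKM in control samples. Acta2, at 88.5 FPKM, was the largest part, and Myh11, Cnn1, Des and Cspg4 were also above every control sample. Rgs5 (30.3 FPKM) and Tagln (3.25 FPKM) lay within the range of the control samples, and Pdgfrb (14.9 FPKM) was below it. The 4 heart muscle markers summed to 25.5 FPKM in model sample 3, against at most 10.4 FPKM in control samples. The heart myosin Myh6 was at 5.11 FPKM in that library and at 0 in all 3 control samples. The part of these cells in the values of the 10 genes was not tested, and each gene whose difference moved by over 1.5 times without that sample is given with the value.

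None of the 10 genes was called by either rule. Their log2 differences lay between -0.39 for Lpar6 and 0.21 for Sphk2, with a median of 0.10 where the median over all genes tested was -0.01. One of the 10 genes, Sphk2, reached an unadjusted p of at most 0.05 with higher values in the PF model, where 4.91% of all genes reached it in either direction and 2.14% with higher values. The 95% intervals of the 10 differences reached from -0.97 at the lowest bound to 0.58 at the highest, on the log2(FPKM + 1) scale. With FPKM rescaled to the same sum in each sample, which moved the median of all genes to 0.05, the difference moved by more than 1.5 times to -0.095 for Enpp2, -0.11 for S1pr1, 0.16 for Lpar1, 0.22 for Lpar2, 0.18 for Lpar3 and 0.19 for Sphk1. For Lpar1 and Sphk2 all 3 PF model samples were above all 3 control samples, and 4.82% of all genes tested showed this pattern. For the other 8 genes the groups overlapped. The adjusted p in limma lay between 0.933 and 0.959 for the 10 genes.

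All 29 transcripts of these genes passed the same filter, and 0 were called by p and fold change, where 1.22% of the 64867 transcripts tested were called higher and 1.76% lower. By adjusted p 0 of the 29 were called, against 0.0277% of all transcripts. An unadjusted p of 0.05 or less in limma was reached by 1 of the 29, which was lower in the PF model, against 4.53% of all transcripts (1.88% higher and 2.65% lower). The transcript of Lpar1 was the only one of the 29 with every PF model sample above every control sample, where 4.12% of all transcripts were. Of the 29 transcripts, 13 are annotated, and the others were assembled from the reads.

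**Figure D1:**
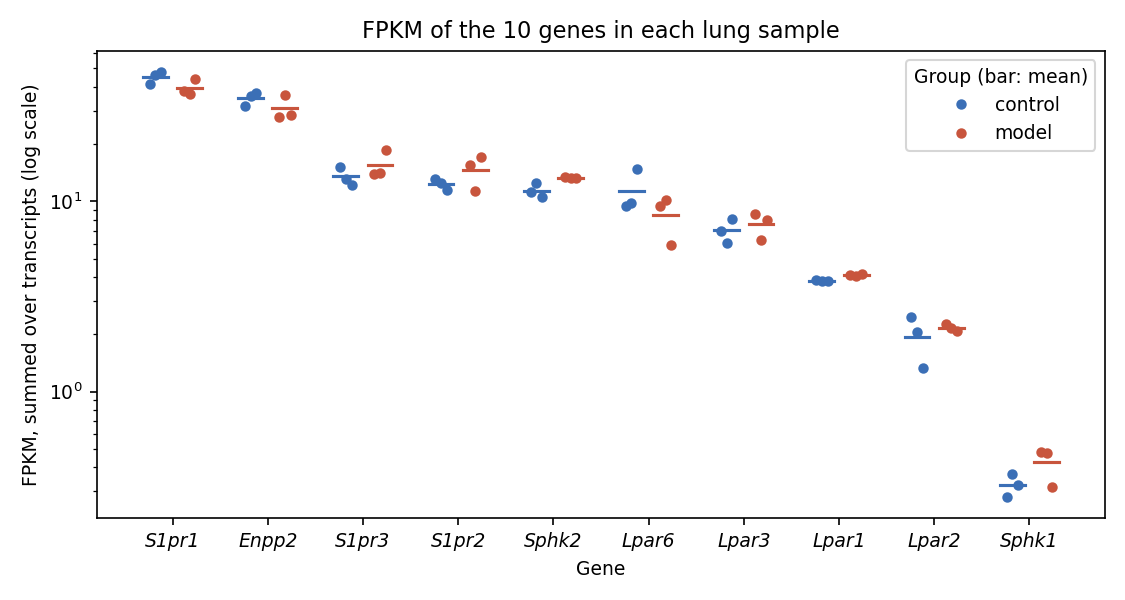
FPKM of each gene, summed over its transcripts, on a log axis, with 1 point per rat (3 control, 3 PF model) and a bar at each group mean. The levels span from Sphk1 at a mean of 0.375 FPKM to S1pr1 at 42.4 FPKM, and for each gene the points of the groups lie close together beside this range.

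**Figure D2:**
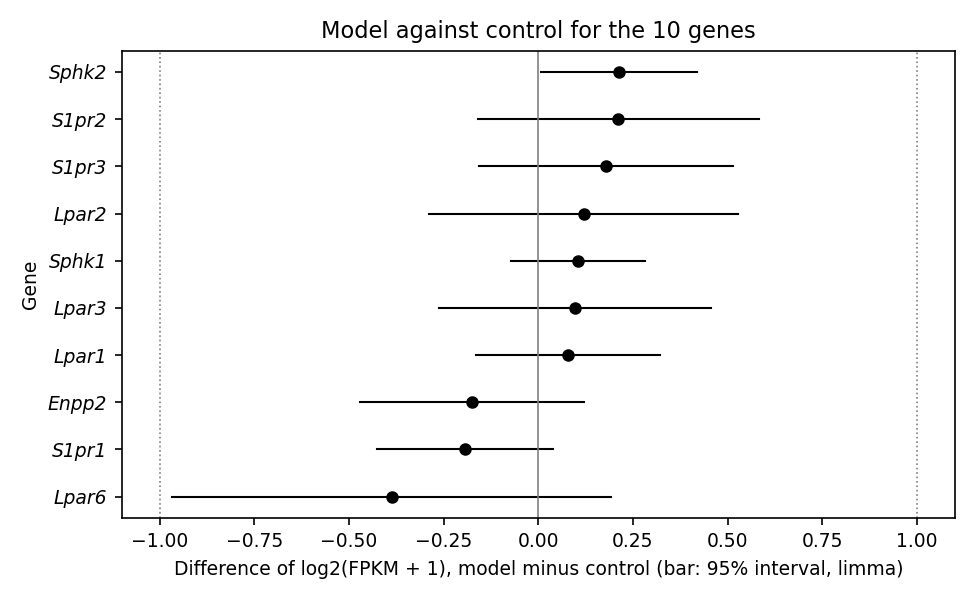
Difference of log2(FPKM + 1) between PF model and control samples for each gene (point) with its 95% interval from limma (bar); dotted lines mark -1 and 1. The interval of Sphk2 lies just above 0, from 0.01 to 0.42, and the intervals of the other 9 genes include 0.

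The enzyme that makes LPA in the extracellular space, Enpp2, had a high level that did not separate the groups. Its summed FPKM was 31.7, 35.7 and 37.2 in control samples 1, 2 and 3 and 27.7, 36.3 and 28.6 in PF model samples 1, 2 and 3. Model samples 1 and 3 were below every control sample, whereas model sample 2 lay between control samples 2 and 3. The means were 34.9 ± 2.83 and 30.9 ± 4.70 FPKM (SD, n = 3), a log2 difference of -0.18 with a 95% interval from -0.47 to 0.12 (standard error 0.12, adjusted p = 0.933, limma). Without model sample 2 the difference was -0.29, with an unadjusted p of 0.0256 in limma, and without model sample 1 it was -0.11, with an unadjusted p of 0.465.

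The Enpp2 value rests on 8 transcripts, of which the annotated one contributed little. Enpp2 lies on the minus strand of chromosome 7 between 94479914 and 94604717 in the coordinates of the deposited table, whose genome build is not given in the sources used here. ENSRNOT00000005561, with 32 exons, held 0.103% of the summed FPKM, and an assembled transcript of 34 exons, MSTRG.32975.2, held 3.15%. The rest came mainly from assembled transcripts with shorter genomic spans that cover separate stretches of the locus. MSTRG.32975.1 has 4 exons at the 3′ end (94479914 to 94488493), MSTRG.32975.8 has 5 exons near the 5′ end (94543721 to 94563265), and MSTRG.32975.5, MSTRG.32975.6 and MSTRG.32975.7 lie between them with 13 or 14 exons each. The spans of the 3′, middle and 5′ groups do not overlap, so the plain sum adds values from different stretches of the gene. The transcript MSTRG.32976.1, on the plus strand inside an Enpp2 intron, also carries the name and held 7.38%.

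The transcripts of the separate stretches were also compared one by one, and the difference between stretches was not tested. The 3′ transcript MSTRG.32975.1 was at 10.0, 9.72 and 12.3 FPKM in control samples and 9.40, 8.71 and 8.54 in PF model samples, so the groups did not overlap. The 5′ transcript MSTRG.32975.8 was at 9.77, 7.74 and 9.74 FPKM in control and 7.57, 7.00 and 6.44 in PF model samples, again without overlap. Its log2 difference of -0.33 (standard error 0.12) had the smallest unadjusted p of all 29 transcripts, 0.0378, and an adjusted p of 0.945 in limma over 64867 transcripts. These were the 2 of the 29 transcripts with every PF model sample below every control sample, a pattern of 6.29% of all transcripts. In the middle, MSTRG.32975.5 varied most, from 1.203 to 9.66 FPKM among control and from 1.70 to 13.1 FPKM among PF model samples, with the highest values in control sample 2 and model sample 2. MSTRG.32975.6 was at 3.92 ± 0.731 FPKM in control and 4.10 ± 0.424 FPKM in PF model samples (SD, n = 3). MSTRG.32975.7 was at 2.21, 1.59 and 5.58 FPKM in control samples and 2.13, 0 and 2.72 FPKM in PF model samples, and its log2 difference of -0.74 had a wide interval, from -2.26 to 0.78. When Enpp2 was instead given the largest FPKM stacked over any 1 position of the locus, a measure added once the values were known, its level was 12.5 ± 3.16 FPKM in control and 12.8 ± 4.61 FPKM in PF model samples, and the log2 difference was 0.0060.

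**Figure D3:**
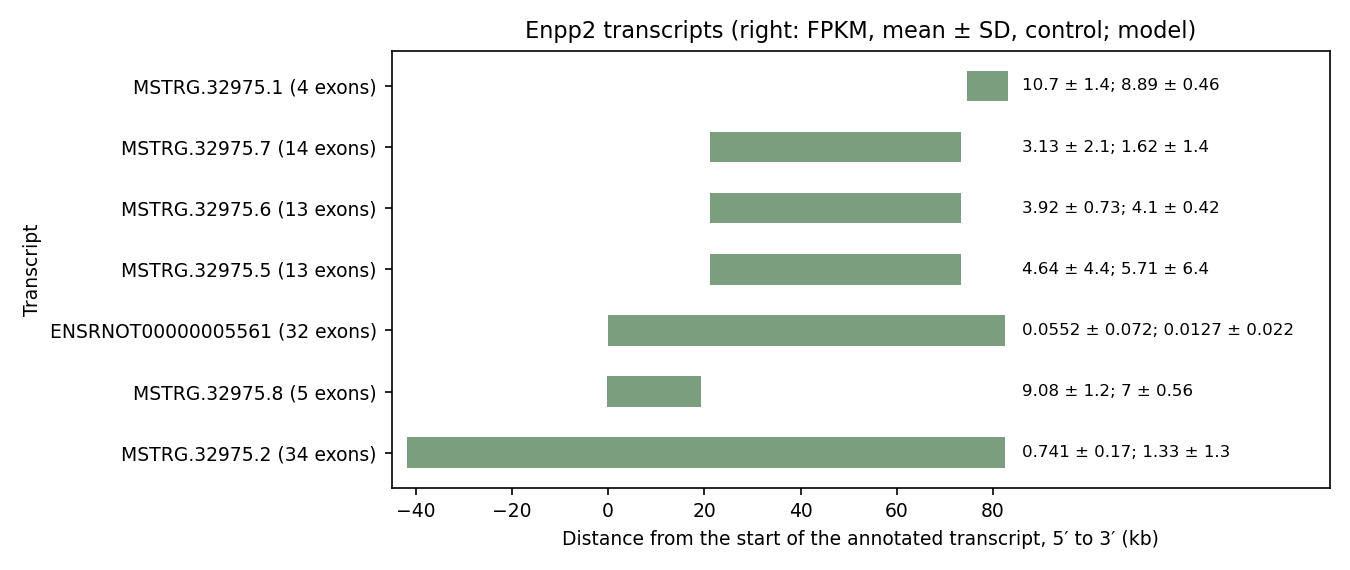
Genomic span of the 7 Enpp2 transcripts on the minus strand, as the distance in kb from the start of the annotated transcript, with mean FPKM ± SD (n = 3) of control and PF model samples at the right. The 4-exon transcript at the 3′ end and the 5-exon transcript at the 5′ end share no position with the 3 transcripts between them.

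Among the LPA receptors, Lpar6 had the highest level and Lpar2 the lowest of the 4 studied. Lpar6, a receptor known from hair and vascular biology that couples to G12/13 proteins, is a gene with 1 exon on chromosome 15 (55126953 to 55128761, plus strand). It was at 9.51, 9.79 and 14.8 FPKM in control samples and 9.47, 10.1 and 5.87 FPKM in PF model samples. Control sample 3 was the highest and model sample 3 the lowest, while the other 4 lay within a narrow range. The means were 11.4 ± 3.00 and 8.50 ± 2.30 FPKM (SD, n = 3), a log2 difference of -0.39 with an interval from -0.97 to 0.19 (adjusted p = 0.933, limma). Leaving out control sample 3 gave -0.20 and leaving out model sample 3, the library with high muscle markers, gave -0.17.

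Lpar1 varied little between rats of a group. Its annotated transcript (chromosome 5, 75557042 to 75676584, minus strand) was at 3.85, 3.81 and 3.82 FPKM in control samples and 4.10, 4.04 and 4.15 FPKM in PF model samples. Every PF model sample was above every control sample, by a ratio of means of 1.07. The log2 difference was 0.08 with an interval from -0.16 to 0.32 (adjusted p = 0.948, limma), since limma draws the spread of a gene toward that of genes at a like level. Fibroblasts are a known source of Lpar1, and of 7 fibroblast markers 0 were called, with a median log2 difference of 0.19. The largest part of their sum was Col3a1, and 3 of the 7 had a negative difference, namely Pdgfra (-0.06), Dcn (-0.13) and Lum (-0.10). Their summed FPKM was between 323.8 and 343.0 in control and between 346.8 and 448.3 in PF model samples, none of them was at 0 in all samples, and their part in the Lpar1 values was not tested.

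Lpar3, a Gq-coupled LPA receptor, was represented by 2 assembled transcripts and by no annotated one. Its summed FPKM was 7.03, 6.07 and 8.04 in control samples and 8.58, 6.27 and 8.02 in PF model samples, and the groups overlapped (log2 difference 0.10, interval from -0.26 to 0.46, adjusted p = 0.959, limma). With 1 sample left out the Lpar3 difference lay between 0.0078 (without control sample 2) and 0.22 (without model sample 2), and it was 0.017 without model sample 1, 0.18 without control sample 3 and 0.06 without model sample 3. The transcript MSTRG.21029.1, from an intron on the opposite strand, held 20.5% of this sum and MSTRG.21028.2, which shares splice junctions with Lpar3, held 58.3%. Lpar2, a receptor shared by epithelial and immune cells, was at 2.46, 2.06 and 1.33 FPKM in control samples and 2.26, 2.15 and 2.08 FPKM in PF model samples. Control sample 3 was the lowest, and the other 5 lay close together (log2 difference 0.12, interval from -0.29 to 0.53). Without that sample the difference was -0.041, and without control sample 1 it was 0.24. Most of the Lpar2 value, 65.6%, came from MSTRG.13966.1, a transcript of 1 exon downstream of the gene. The annotated transcript ENSRNOT00000083537 was at 0.676 ± 0.127 FPKM in control and 0.694 ± 0.134 FPKM in PF model samples (SD, n = 3).

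S1pr1, the main endothelial S1P receptor, had the highest level of the 10 genes. Its annotated transcript (chromosome 2, 218654554 to 218658761, minus strand) was at 41.6, 46.4 and 47.9 FPKM in control samples and 37.9, 36.9 and 43.9 FPKM in PF model samples. Model samples 1 and 2 were the lowest of all 6, and model sample 3 lay between control samples 1 and 2. The means were 45.3 ± 3.28 and 39.6 ± 3.75 FPKM (SD, n = 3), a log2 difference of -0.19 with an interval from -0.43 to 0.04 (standard error 0.10, adjusted p = 0.933, limma). Without model sample 3 the difference was -0.27, with an unadjusted p of 0.0249 in limma, and after rescaling to the same sum it was -0.11, with an unadjusted p of 0.41. Of 9 endothelial markers, 7 were found by name (Pecam1 and Cldn5 were not) and 0 were called, with a median log2 difference of -0.03. Their summed FPKM was between 330.1 and 453.0 in control and between 367.6 and 428.8 in PF model samples, none was at 0 in all samples, and their part in the S1pr1 values was not tested.

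S1pr2 and S1pr3, the S1P receptors that couple to G12/13 and Gq proteins, had higher means in the PF model, with overlap between the groups. S1pr2 was at 13.2, 12.5 and 11.4 FPKM in control samples and 15.5, 11.4 and 17.2 FPKM in PF model samples. Model samples 1 and 3 were above every control sample and model sample 2 was below them all. The log2 difference was 0.21 with an interval from -0.16 to 0.58 (adjusted p = 0.933, limma), and without model sample 2 it was 0.37, with an unadjusted p of 0.0141 in limma. Without model sample 3 it was 0.095, with an unadjusted p of 0.545. S1pr3 was at 15.2, 13.1 and 12.2 FPKM in control samples and 13.9, 14.1 and 18.6 FPKM in PF model samples, of which only model sample 3 was above every control sample. Its log2 difference was 0.18 with an interval from -0.16 to 0.51 (adjusted p = 0.933, limma), and leaving out model sample 3 gave 0.05 and leaving out control sample 3 gave 0.11. The transcript ENSRNOT00000019473 held 96.4% of the S1pr3 value, and ENSRNOT00000028034 held 88.4% of that of S1pr2.

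Within a library, the share of each receptor in the summed FPKM of its family does not depend on how the library was scaled. These shares were computed after the values of the genes had been seen. S1pr1 held 56.1%, 59.6% and 62.4% of the FPKM of the 5 S1P receptors in control samples and 53.1%, 55.1% and 51.8% in PF model samples. All control samples were above all PF model samples, with means of 59.4 ± 3.19% and 53.3 ± 1.65% (SD, n = 3). Among the 11 receptor shares this was the only one without overlap. Of all genes tested, 10.7% had groups without overlap in either direction and 5.87% with lower values in the PF model. The exact permutation test gave p = 0.1 (two-sided), the smallest that 3 rats against 3 allow, and an adjusted p of 0.55 over the 11 receptor shares compared. The share of S1pr2 was 16.3 ± 1.43% in control and 19.7 ± 2.41% in PF model samples, and that of S1pr3 was 17.8 ± 2.43% and 20.8 ± 1.25% (SD, n = 3; exact permutation p = 0.2 for both). Lpar6 held between 40.1% and 50.8% of the FPKM of the 6 LPA receptors in control samples and between 27.1% and 43.6% in PF model samples, Lpar3 between 27.0% and 29.7% and between 27.0% and 37.1%.

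**Figure D4:**
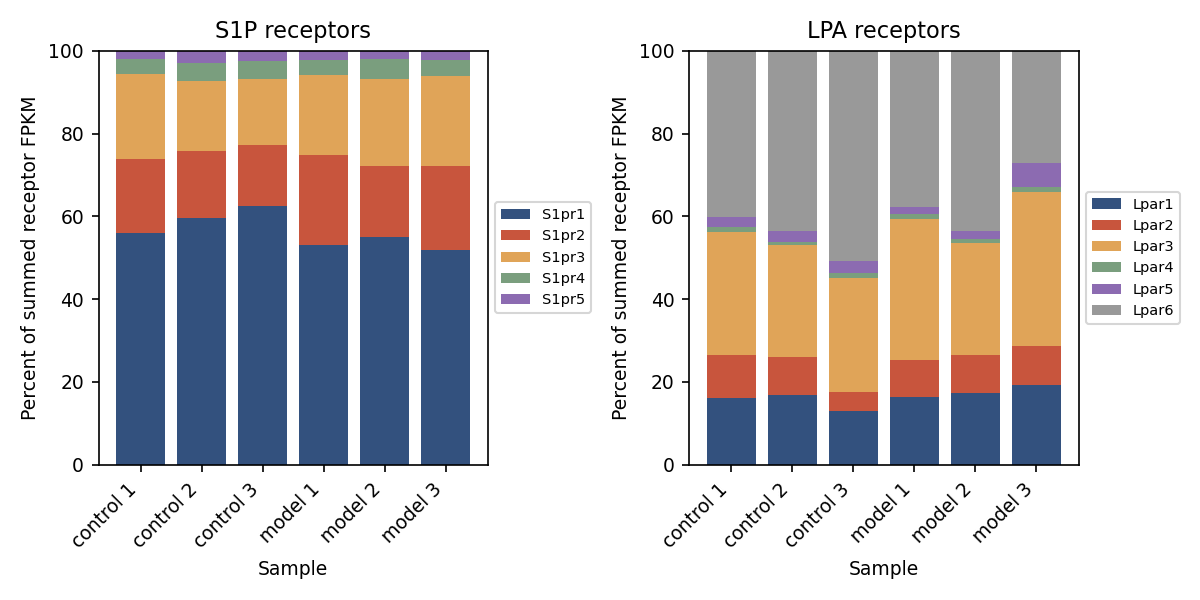
Percent of the summed FPKM of the 5 S1P receptors (left) and the 6 LPA receptors (right) held by each receptor in each of the 6 lung samples, as stacked bars from 0 to 100%. The S1pr1 segment is between 56.1% and 62.4% in the control samples and between 51.8% and 55.1% in the PF model samples.

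Of the kinases, Sphk2 was far above Sphk1. Sphk2, the sphingosine kinase found mainly in the nucleus and mitochondria, was at 11.2, 12.4 and 10.6 FPKM in control samples and 13.5, 13.3 and 13.3 FPKM in PF model samples. The PF model samples were all higher and lay close together, with means of 11.4 ± 0.945 and 13.4 ± 0.12 FPKM (SD, n = 3). The log2 difference was 0.21 (standard error 0.09, interval from 0.01 to 0.42) with an unadjusted p of 0.0443 and an adjusted p of 0.933 in limma, and the ratio of means was 1.17. Among the 6 fits with 1 sample left out, the unadjusted p of Sphk2 stayed at 0.05 or less only without control sample 2 and reached 0.128 without control sample 3. With FPKM rescaled to the same sum in each sample the difference was 0.30 (unadjusted p of 0.0124 in limma). From the annotated transcript alone, which held 3.83% of the Sphk2 value, it was 0.03 with an unadjusted p of 0.855 in limma.

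The Sphk2 sum was steadier than its parts. The assembled transcript MSTRG.1780.1 was at 4.85, 1.27 and 3.67 FPKM in control samples and 4.22, 4.94 and 4.42 FPKM in PF model samples, and MSTRG.1780.2 at 1.58, 4.78 and 2.59 FPKM and 1.48, 1.91 and 1.91 FPKM. Control sample 2 was the lowest for the first and the highest for the second. MSTRG.1780.3 was at 1.59, 3.77 and 2.97 FPKM in control samples and 4.68, 3.94 and 3.62 FPKM in PF model samples. Without control sample 1, MSTRG.1780.2 passed the thresholds on p and fold change, with mean FPKM of 3.68 in control and 1.77 in PF model samples. Its difference on the log2(FPKM + 1) scale was -0.72 (unadjusted p of 0.0407 and adjusted p of 0.938 in limma). This was the only call of any of the 29 transcripts when a sample was left out. In the same fit, without control sample 1, 2531 of the 64867 transcripts tested were called, 1536 of them lower in the PF model. Sphk1, the cytosolic kinase that growth factors induce, was at 0.281, 0.371 and 0.323 FPKM in control samples and 0.484, 0.478 and 0.316 FPKM in PF model samples. Model samples 1 and 2 were above every control sample and model sample 3 was not. An estimated 25 to 57 reads per library lay behind the Sphk1 value, and 0.325 ± 0.0448 and 0.426 ± 0.0957 FPKM (SD, n = 3) gave a ratio of means of 1.31 with a log2 difference of 0.10 on the log2(FPKM + 1) scale, which understates the change of low genes. Without model sample 3 that difference was 0.16. None of its 3 annotated transcripts was above 0 in all 6 samples.

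By mean FPKM over the 6 samples, the order of levels was S1pr1 (42.4), Enpp2 (32.9), S1pr3 (14.5), S1pr2 (13.5), Sphk2 (12.4), Lpar6 (9.94), Lpar3 (7.34), Lpar1 (3.96), Lpar2 (2.06) and Sphk1 (0.375). The ranges over samples did not overlap between Enpp2 and S1pr3, between Lpar3 and Lpar1, between Lpar1 and Lpar2 and between Lpar2 and Sphk1. S1pr1 and Enpp2 overlapped in range, though S1pr1 was higher in 6 of 6 samples. The genes from S1pr3 to Lpar3 overlapped each with the next in the order. With the largest FPKM stacked over any 1 position, Enpp2 (12.6) moved below S1pr3 (14.5), with overlapping ranges, and S1pr1 stood apart from all other genes. By that measure Lpar2 was at 0.709 FPKM, since its downstream transcript no longer counted. An estimated 4178 to 6020 reads per library lay behind S1pr1, 3225 to 4824 behind Enpp2 and 114 to 197 behind Lpar2.

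The other genes of the pathway showed no call either. The remaining receptors were low: S1pr4 was at 3.17 ± 0.410 and 2.98 ± 0.402 FPKM, and S1pr5 at 1.87 ± 0.382 and 1.62 ± 0.229 FPKM in control and PF model samples (SD, n = 3). Lpar5 and Lpar4 were below 1 FPKM in mean, at 0.694 and 0.246 FPKM, and the 4 receptors had a median log2 difference of -0.05. None of the 4 reached an unadjusted p of 0.05 or less in limma. Of 17 genes for LPA production and removal found by name, 0 were called and 0 reached that unadjusted p, with a median of -0.01. The lowest difference among them belonged to the phospholipase Pla2g6 (-0.97), at 36.9 ± 40.5 and 12.3 ± 0.983 FPKM (SD, n = 3). Its control sample 2 was at 83.7 FPKM and the other 5 samples between 11.2 and 13.7 FPKM. The highest belonged to the phosphatase Plpp5 (0.33, interval from -0.61 to 1.28). Plpp5 was at 2.04, 0.909 and 0.0386 FPKM in control samples and 0.785, 1.83 and 1.39 FPKM in PF model samples. Of 9 genes for S1P removal and transport, 0 were called and 0 reached that unadjusted p, with a median of 0.05. The S1P carrier Apom was the lowest (-0.20) and the lipid transporter Abcg1 the highest (0.34).

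Of 20 genes for ceramide and sphingosine supply, 0 were called, with a median of 0.03, and 2 reached an unadjusted p of at most 0.05 with lower values in the PF model, where 2.77% of all genes did. They were Asah2 and Acer3, and the other ceramidases of the list, Asah1 (28.7 ± 2.02 and 29.8 ± 2.74 FPKM) and Acer2 (45.1 ± 5.43 and 45.02 ± 2.75 FPKM; SD, n = 3), named after their values were seen, had differences of 0.05 and 0.0025. Ceramidases release sphingosine from ceramide. Asah2, the neutral ceramidase, was at 6.71 ± 0.896 FPKM in control and 3.84 ± 0.518 FPKM in PF model samples (SD, n = 3), a log2 difference of -0.67 (standard error 0.14, adjusted p = 0.933, limma). Acer3, an alkaline ceramidase that was named after its values were seen, was at 11.6 ± 2.96 and 7.09 ± 0.899 FPKM (log2 difference -0.61, adjusted p = 0.933, limma). Cers2, the ceramide synthase of long acyl chains, had the highest difference of the list (0.32), at 35.2 ± 6.89 and 43.7 ± 3.28 FPKM.

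**Figure D5:**
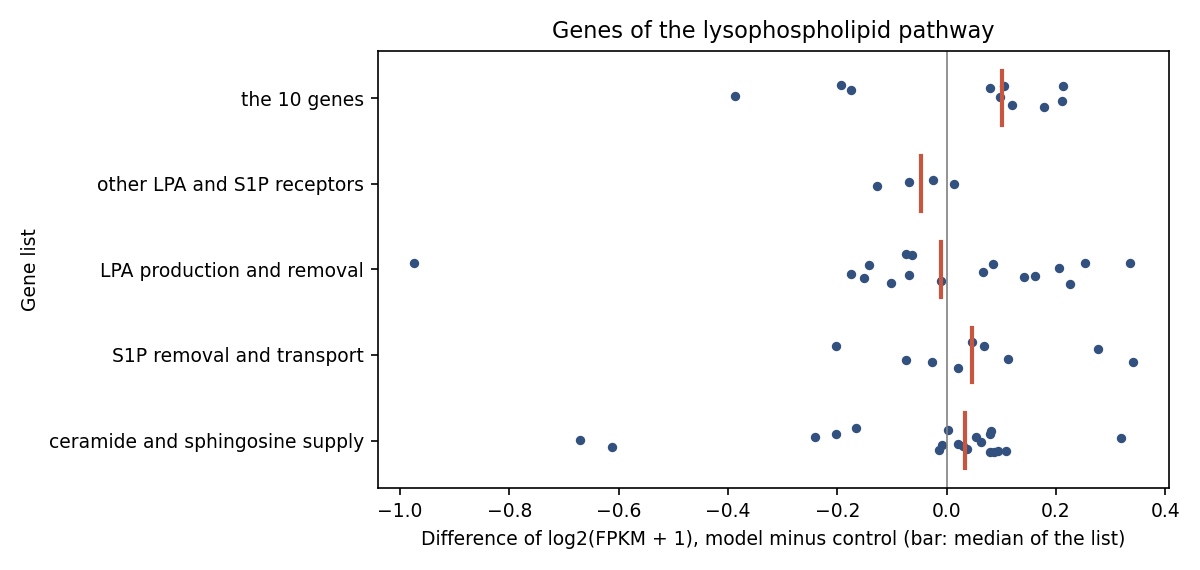
Difference of log2(FPKM + 1) between PF model and control samples for each tested gene (point) of the 10 genes and of 4 lists of other pathway genes, with the median of each list as a bar. Points are spread vertically for display. The medians lie between -0.05 and 0.10, and the lowest point is Pla2g6 at -0.97.

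Markers of lung and of fibrosis were measured in the same libraries. Alveolar type 2 markers summed to between 4264 and 5943 FPKM in control and between 5028 and 6573 FPKM in PF model samples, so the defining transcripts of lung were present at high levels in all 6 libraries. Of 15 fibrosis genes 0 were called and 1, Col3a1, reached an unadjusted p of 0.05 or less in limma, with a median log2 difference of 0.15. Col3a1, a fibrillar collagen, was at 168.5 ± 13.1 and 208.3 ± 22.3 FPKM (SD, n = 3; log2 difference 0.30, adjusted p = 0.933, limma). The lists for smooth muscle and pericytes, alveolar type 1, airway, macrophages, T cells, B and plasma cells, neutrophils and platelets, and heart muscle had 0 called genes and 0 at that unadjusted p each, with medians between -0.06 and 0.44, the highest for heart muscle. Of the 4 heart muscle markers 3 were tested, since Myh6 did not pass the filter, and all 4 were highest in model sample 3.

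Among the 14311 other genes with a mean FPKM of at least 1, those whose log2(FPKM + 1) was most like that of Enpp2 over the 6 samples were Fancf, Terc and AABR07015889.1, each with Pearson's r of at least 0.99. Those most like S1pr1 were Gpr65, Sp3 and Tmem138, with r from 0.98 to 0.99. With only 6 points that share libraries and scaling, 105 genes had an r above 0.9 with Enpp2 and 92 with S1pr1, so the names are a description.

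The deposited table of circular RNAs held 1 entry from the 10 genes, circRNA2368, with 9 exons of Enpp2 on chromosome 7 from 94500813 to 94520853. It had 1 back-splice read in control sample 3 and 0 in the other 5 samples, among libraries of 2037 to 2964 back-splice reads, which is too few for a test. The other 9 genes had no entry among the 5216 circular RNAs.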

How the data were processed

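Lung RNA was sequenced after removal of rRNA, with read pairs of 150 bases and 1 library per rat. Per the methods, the authors used Cutadapt for trimming, Bowtie2 and Tophat2 for mapping and StringTie for assembly, while the submitters' processing notes name HISAT2, StringTie and TopHat. The genome build and tool versions are not given in the sources used here. The authors deposited FPKM for each transcript, estimated with StringTie and Ballgown, and its mean coverage per base, which carries no scaling for depth. The deposited circular RNA table gives back-splice reads as raw counts and as SRPBM, a depth-scaled signal left unused here.

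The samples were grouped by the labels, and all 24 measurement columns were assigned to a sample. FPKM were summed per gene name, transcripts on the other strand or beside the gene included, and compared with limma 3.58.1 (with trend, two-sided) in R 4.3.3 on log2(FPKM + 1), for features above 0 in at least 3 samples. Single values were compared by exact permutation. Reads were estimated as coverage times length divided by 150, and precision is limited by 3 rats per group. P values in limma set a difference against the spread between these rats, which limma draws toward that of genes at a like level. The 10 genes, the lists and the tests were chosen with earlier results of these data known. Named were the 10 genes, any of their transcripts averaging 0.1 FPKM or more, and from each pathway list reported the called genes and the extreme differences at a mean FPKM of at least 1. Of the listed names, Liph, Lipi, Alb, Pecam1, Cldn5, Foxj1, Marco and Cd79a were not found. A list of downstream signaling genes is not reported here. Alternatives were other pseudocounts, filters, scalings, gene sums, limma without trend, the replicate number as a block and each sample left out in turn. The largest stacked FPKM, a sum over same-strand spliced transcripts and the receptor shares were added after the data were seen. On simulated data for the 19645 genes, limma reached p of at most 0.05 for 92.0% of genes changed by 1 log2 unit and for 5.28% of unchanged ones. By adjusted p below 0.05 it called 56% of the 100 genes changed by 1 log2 unit and 91% of the 100 changed by 2. In the same run it called 14 unchanged genes. The changed genes were drawn from those averaging above 1 on the log2(FPKM + 1) scale, which leaves out genes as low as Sphk1. Changes below 1 log2 unit were not simulated. Python 3.11.15, pandas 2.3.3 and matplotlib 3.10.9 served for tables and figures.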

Additional observations from a re-analysis of the deposited data

How the results depend on the processing

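With 3 rats per group, differences within the 95% intervals printed above could not be told apart, and low genes such as Sphk1 rest on few reads. Over the alternatives, 0 of the 10 genes were called in any, and 154 of 168 recomputed differences kept their direction and their side of an unadjusted p of 0.05 in limma. Sphk2 moved above that p in 9 of its 17 alternatives, and its differences over all 17 lay between 0.03 and 0.30. Enpp2, S1pr1 and S1pr2 moved below it in 1 alternative each, each with 1 model sample left out. The Enpp2 difference changed sign to 0.0060 with the largest stacked value. That of Lpar2 lay between -0.041 (without control sample 3) and 0.24 with a sample left out. Annotated transcripts only gave no value for Lpar3, and the stricter filter on low genes gave none for Sphk1.

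No sign was seen that the replicate numbers pair the rats. The correlation of same-numbered deviations lay between -0.08 and 0.06, and that of differently numbered ones between -0.13 and 0.10. With 3 rats per group these values cannot exclude a pairing. With the number as a replicate block, 312 genes and 1943 transcripts were called, and 0 genes and 0 transcripts had an adjusted p below 0.05 in limma. Calls by p and fold change numbered 519 genes with annotated transcripts only (7 by adjusted p) and 84 genes and 1066 transcripts at a mean FPKM of at least 1. Transcripts called by adjusted p numbered 18, then 36 with a pseudocount of 0.1 and 11 without a filter. With each sample left out in turn, calls by p and fold change lay between 321 and 411 genes and between 2106 and 2531 transcripts, and calls by adjusted p between 1 and 4 genes and between 0 and 19 transcripts, 0 without control sample 3 or model sample 2. Among the 29 transcripts of the 10 genes 0 to 1 were called, and among the 10 genes 0. The S1pr1 share of S1P receptor FPKM differed by -6.05 percentage points between PF model and control samples, between -7.70 and -4.52 with a sample left out and between -6.09 and -5.15 with other sums. The causes were not tested.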
